A study of Mus musculus with 20 samples.

Results

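The sodium-dependent phosphate transporter gene Slc34a2 and the other genes that carry inorganic phosphate across the mouse plasma membrane (Slc34a1, Slc34a3, Slc20a1, Slc20a2 and Xpr1) were described in the livers of 20 mice. All probes named for these 6 genes were taken, which gave 11 probes and 6 of the 34741 genes and transcripts named on the array. Slc34a2 was chosen by its measured rise with estradiol in wild-type livers, and the 5 other genes were chosen by the function they share with it. The rise of Slc34a2 is therefore given as a description with no test. No test is given for that gene in the other comparisons either. In these, no array measured it well above background or the wild-type estradiol arrays enter.

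The livers came from female mice that carried estrogen receptor alpha (ERa+/+, wild type) or lacked it (ERa-/-, null). Every animal had been ovariectomized at 4 weeks of age, which removes the main source of its own estrogen, and was gavaged at 9 weeks of age. Within each genotype the gavage held estradiol (E2, the chief ovarian estrogen) at a dose of 1 mg/kg, or a placebo of castor oil and 5% ethanol. Livers were frozen 4 hours later, under ketamine and xylazine anaesthesia in all groups. Each of the 4 groups held 5 animals with 1 array each, and the labels derive both genotypes from the same parents. The sources used here do not give how the receptor gene was inactivated, or in which cells.

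Inorganic phosphate enters cells through 2 families of sodium-coupled carriers. The SLC34 family moves phosphate across the luminal face of epithelia: Slc34a1 and Slc34a3 in the proximal tubule of the kidney, and Slc34a2 in the small intestine, the lung and several glands. The SLC20 carriers Slc20a1 and Slc20a2 supply phosphate to most cell types, and Xpr1 is the exporter that lets phosphate out. E2 acts on transcription largely through its nuclear receptors, which bind estrogen response elements in DNA or join other factors there, among them AP-1.

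The sequences upstream of the SLC34 genes are shown because Slc34a2 was the member with the large difference and the other SLC34 genes are its closest relatives. RefSeq promoter entries (build GRCm38.p6, 250 bases before to 50 after the start of transcription) were found for 5 of the 6 genes, with 2 entries for Slc20a1. The entries lie at chr5:53049103-53049352 on the plus strand for Slc34a2, chr13:55399398-55399647 on the plus strand for Slc34a1 and chr2:25234235-25234484 on the minus strand for Slc34a3, each given as the 250 bases before the start, 5′ to 3′. Capitals mark TGACC or GGTCA, the 2 arms of an estrogen response element, and TATATA, a run chosen after the Slc34a2 sequence had been seen.
Slc34a2: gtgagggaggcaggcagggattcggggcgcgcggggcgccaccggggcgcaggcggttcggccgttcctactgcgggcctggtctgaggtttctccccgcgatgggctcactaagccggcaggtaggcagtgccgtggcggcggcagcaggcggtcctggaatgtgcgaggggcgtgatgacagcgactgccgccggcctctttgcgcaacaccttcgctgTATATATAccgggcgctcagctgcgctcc
Slc34a1: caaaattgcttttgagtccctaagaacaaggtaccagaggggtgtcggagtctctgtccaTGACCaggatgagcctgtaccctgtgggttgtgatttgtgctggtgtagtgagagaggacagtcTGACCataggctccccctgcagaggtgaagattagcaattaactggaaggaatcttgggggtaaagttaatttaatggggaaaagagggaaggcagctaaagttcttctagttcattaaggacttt
Slc34a3: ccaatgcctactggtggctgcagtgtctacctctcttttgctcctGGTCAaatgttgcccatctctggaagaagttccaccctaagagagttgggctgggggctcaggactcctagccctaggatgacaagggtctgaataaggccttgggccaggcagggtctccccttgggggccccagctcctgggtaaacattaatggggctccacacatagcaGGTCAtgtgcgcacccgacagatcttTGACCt

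The window of Slc34a2 held no TGACC or GGTCA within its 300 bases, while those of Slc34a1 and Slc34a3 held 3 each, at -190, -126 and 5 and at -205, -32 and -6 from the start. Each Slc20a1 window and that of Xpr1 held 1. Of all 32851 promoters of the table, 40.5% held one of these words on either strand. The palindromic estrogen response element, GGTCA and TGACC facing each other around 3 bases, was in no member's window and in 0.07% of all promoters, and its arms were counted again among the single words. The AP-1 word TGANTCA, searched on both strands, was in no window of a member and in 7.81% of all promoters. The GC box GGGCGG (or CCGCCC) was in no SLC34 window, in both Slc20a1 windows and in that of Xpr1, against 35.7% of all promoters. The Slc34a2 window held 2 overlapping TATATA runs, 29 and 27 bases upstream of the start, a word that 5.67% of promoters hold on either strand. With 68.7% G and C and 30 CpG pairs it was richer than the upper quartile of all promoters (61.7%, median 52.7%). Slc34a1 had 46.7% and Slc34a3 57.7%, each with 2 CpG pairs. These letters describe the windows alone, and binding of any factor there was not analysed here.

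All levels below are log2 processed intensities of a probe relative to the 75th percentile of its array, so a level of 0 is the 75th percentile and a difference of 1 is a doubling. A spot counts as well above background where the scanner software set that flag for it. Levels are compared between livers for the same probe. Across probes, levels serve to pick the brightest probe of a gene and to sum cell type markers, where the brightest marker weighs most. Of the 11 probes, 6 were well above background on all 20 arrays and 2 on 17 arrays (with a less strict flag for a positive and significant signal, 8 on all 20). The single Slc34a2 probe was well above background on 5 of 5 wild-type E2 arrays and on 0 of 5 in each of the other groups. The single Slc34a3 probe was so on 0 of 20 arrays, and the second Slc34a1 probe on 1, that of wild-type E2 animal 1. A filter that asked for at least 4 of 5 arrays in at least 1 group kept 9 probes and 5 genes, all but Slc34a3, and Slc34a2 passed it through the wild-type E2 group alone.

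**Figure D1:**
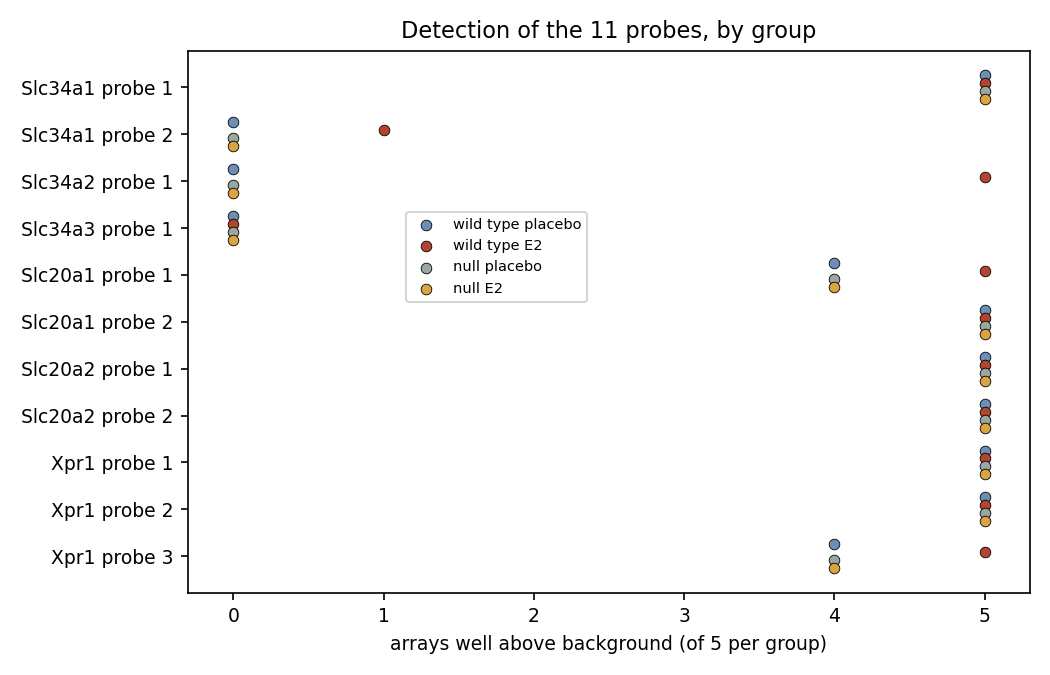
Number of arrays (x axis, 0 to 5 per group) on which each of the 11 probes (y axis) was well above background, with 1 point per group. The Slc34a2 probe stands at 5 for wild-type E2 and at 0 for the other groups, while 6 of the 11 probes stand at 5 in all 4 groups.

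Slc34a2 encodes the epithelial phosphate importer of gut and lung. Its transcript was bright in every wild-type liver after E2 and well above background in none of the 15 others. It had the less strict flag on 3 of 5 wild-type placebo, 2 of 5 null placebo and 1 of 5 null E2 arrays. In wild types on E2 its level was 0.79, -0.021, -0.63, -0.90 and -0.70 in animals 1 to 5 (mean -0.29 ± 0.69, SD, n = 5). In wild types on placebo it was -5.37, -5.31, -7.08, -7.15 and -6.05 (mean -6.19 ± 0.89, SD, n = 5). The lowest wild-type E2 liver lay above the highest placebo liver, and no placebo array measured the probe well above background. In nulls on placebo the level was -6.33, -5.92, -6.80, -5.98 and -6.67 (mean -6.34 ± 0.40, SD, n = 5). In nulls on E2 it was -7.05, -6.08, -6.81, -6.86 and -5.75 (mean -6.51 ± 0.56, SD, n = 5). The ranges of these 3 groups overlapped, so their order (wild-type placebo, null placebo, null E2) lies within the spread between animals.

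Because no array of those 3 groups was well above background, the size of the rise rests on a floor. Each dim array was set no lower than the lowest signal that was well above background on it. Slc34a2 in wild types on E2 was then 24.2-fold higher than in wild types on placebo. Against nulls on placebo the value was 22.2-fold, and against nulls on E2 it was 21.7-fold. These folds are not strict bounds, since a spot that was not well above background can lie above that floor. In wild-type placebo animal 2 Slc34a2 itself did, at -5.31 against -5.36. The measured log2 difference, not held at that floor, was 5.90 for E2 in wild types. It was 6.07 for the difference between the E2 effects of the genotypes and -6.22 for null against wild type under E2. These values rest on very low processed intensities on the dim arrays. In wild-type placebo animal 3 the intensity was 2.79, although the spot mean of 40.6 lay below its local background of 47. The difference was 2.57, 2.56 and -2.64 with another background correction (normexp), which adds 50 to every spot, followed by quantile normalization. It was 3.08, 3.06 and -3.16 in the authors' deposited values, which followed the scanned signal without background subtraction. Both sets leave an added or unsubtracted amount in every spot, and both are smaller differences than the folds above give. The probe lies on chromosome 5 at 53462121 to 53462180 (mm9). In a piece of liver, more RNA per cell and more cells of a type that makes it cannot be told apart.

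The scanned brightness of the spot shows the same split without any scaling. Its mean intensity was 778.9, 432.5, 267.9, 333.0 and 317.4 in wild types on E2, animals 1 to 5, against a local background of 32 to 47. On the other 15 arrays it was 40.09 to 54.57, against a local background of 28 to 47. The signal of the spot was thus several times its surroundings in 1 group and much nearer to its surroundings in the others.

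**Figure D2:**
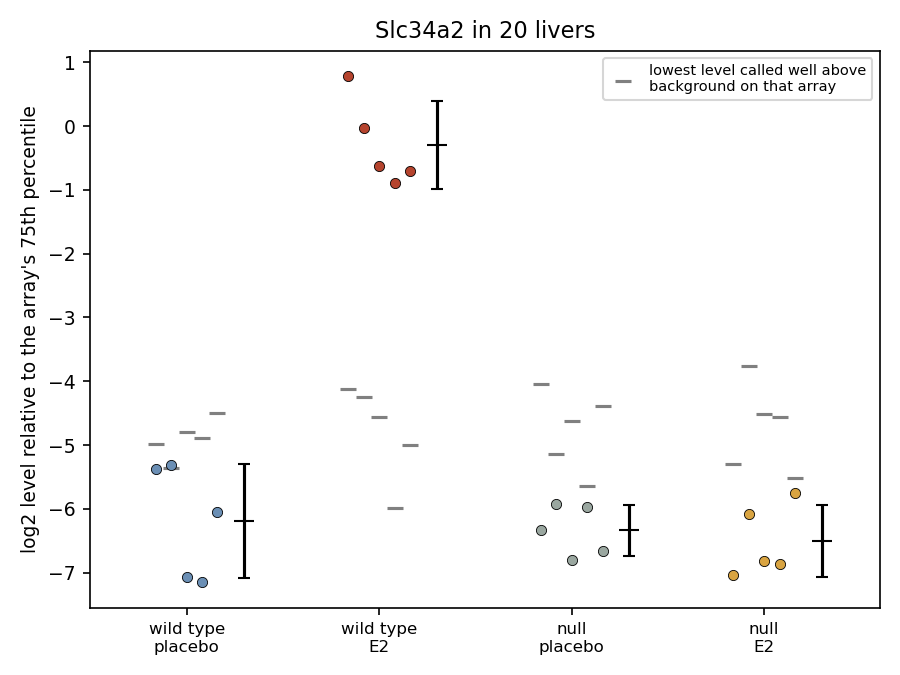
Slc34a2 level (log2 relative to the array's 75th percentile, y axis) in each of 20 livers (points) by group, with the group mean and SD as a bar and, as a grey tick per array, the lowest level that was well above background there. The 5 wild-type E2 livers lie between -0.90 and 0.79, far above their ticks, and the other 15 lie between -7.15 and -5.31.

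Within the wild-type E2 group the level ranged 3.21-fold. Animals 1 and 2, which carry numbers below 750 in the labels, had 0.79 and -0.021, and the 3 animals with higher numbers had -0.90 to -0.63. All 5 wild types on placebo carry higher numbers, and with the animals numbered 750 or above alone the E2 difference in wild types was 5.45. Animal 1 also had the largest share of spots well above background of all 20 arrays (70.05%, against 53.96% to 61.04% in the rest of its group). The part of that share in the level of animal 1 was not tested, and without animal 1 the difference was 5.63. Within each of the 3 slides that held both treatments of wild types, the difference was 4.85, 7.23 and 4.67.

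In nulls the measured level of Slc34a2 differed by -0.17 between E2 and placebo, and between nulls and wild types under placebo by -0.15. No array of these groups measured the probe well above background, so neither value gives a fold, and no test is given. The data do not say whether the transcript changed below that limit.

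Slc34a1 encodes the main phosphate importer of the kidney tubule. Its brighter probe, on chromosome 13 at 55514826 to 55514885, was well above background in all 20 livers. Levels were -2.42, -4.02, -2.81, -3.02 and -2.69 in wild types on placebo and -2.18, -2.66, -2.50, -2.76 and -2.95 in wild types on E2. They were -2.73, -3.36, -3.00, -2.56 and -2.22 in nulls on placebo and -2.79, -2.35, -2.86, -2.39 and -2.34 in nulls on E2. All 4 groups overlapped, and wild-type placebo animal 2 was the lowest of the 20. The E2 difference was 0.38 in wild types (95% interval -0.15 to 0.92, adjusted p = 0.701, limma over 21998 genes with Benjamini-Hochberg adjustment) and 0.23 in nulls (95% interval -0.30 to 0.76, adjusted p = 0.942). Without wild-type placebo animal 2 the E2 difference in wild types was 0.13, and leaving out each animal in turn gave 0.13 to 0.53. The second probe of the gene, at 55515201 to 55515259, read -3.38 in wild-type E2 animal 1 and between -7.33 and -5.72 in all other livers. Slc34a1 and Slc34a2 thus differed in pattern within the same livers, a difference that was not tested.

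Slc34a3, which encodes the third family member and also acts in the kidney, was not measured well above background in any liver. Its probe had the less strict flag on 2 wild-type placebo, 3 wild-type E2, 1 null placebo and 1 null E2 arrays. Its probe lies on chromosome 2 at 25084438 to 25084497. It read -6.67, -6.61, -6.74, -6.84 and -6.33 in wild types on placebo and -5.40, -4.64, -6.50, -5.29 and -6.87 in wild types on E2. In nulls it read -6.88 to -5.40 on placebo and -6.70 to -5.74 on E2. With no array well above background on either side, no fold is given.

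Slc20a1 encodes a phosphate importer that most cells make. The probe used, on chromosome 2 at 129037286 to 129037345, read 4.75, 4.30, 3.70, 3.57 and 3.59 in wild types on placebo and 4.60, 4.84, 4.01, 4.01 and 3.95 in wild types on E2. In nulls it read 4.70, 4.29, 4.60, 4.34 and 4.03 on placebo and 4.34, 4.55, 3.97, 4.20 and 4.56 on E2. The groups overlapped, with animals 1 and 2 the highest in both wild-type groups. The E2 difference was 0.30 in wild types (95% interval -0.18 to 0.78, adjusted p = 0.747, limma) and -0.069 in nulls (adjusted p = 0.985). Leaving out each animal in turn gave 0.16 (without wild-type E2 animal 2) to 0.49 (without wild-type placebo animal 1). Wild types on E2 with numbers below 750 had 4.60 and 4.84 and those with higher numbers 3.95 to 4.01. All 5 wild types on placebo carry higher numbers. With the animals numbered 750 or above alone the E2 difference in wild types was 0.0071, the lowest of all alternatives.

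A second Slc20a1 probe, at 129029990 to 129030049, belongs to another transcript record of the gene and was well above background on 17 arrays. It read -3.22, -4.09, -4.37, -4.19 and -4.71 in wild types on placebo and -2.85, -3.67, -3.61, -3.99 and -3.47 in wild types on E2. Its E2 difference in wild types was 0.60 (95% interval 0.07 to 1.13), with an unadjusted p of 0.0278 and an adjusted p of 0.546 in limma over all kept probes. The groups overlapped here as well, and the 2 probes of the gene did not differ in the sign of this value. They did for null against wild type under E2. There the second probe gave -0.49 (unadjusted p = 0.0674, adjusted p = 0.557, limma) and the probe used 0.044.

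Slc20a2 encodes the other SLC20 importer, and the probe used for it had the smallest spread within groups among the members (SD 0.11 to 0.16). Its brighter probe lies on chromosome 8 at 23679961 to 23680020. It read 3.57, 3.71, 3.41, 3.35 and 3.46 in wild types on placebo and 3.83, 3.77, 3.59, 3.69 and 3.47 in wild types on E2. In nulls it read 3.92, 3.69, 3.62, 3.76 and 3.51 on placebo and 3.79, 3.61, 3.58, 3.70 and 3.83 on E2. The ranges overlapped, and the 3 lowest livers were wild types on placebo. Null against wild type under placebo gave 0.20 (95% interval 0.00093 to 0.40), with an unadjusted p of 0.0490 and an adjusted p of 0.492 in limma. The E2 difference was 0.17 in wild types (95% interval -0.028 to 0.37, adjusted p = 0.651), and -0.055 when arrays were scaled to their median, a scaling that moved the median of all genes by -0.22. In nulls it was 0.0043 (95% interval -0.19 to 0.20, adjusted p = 0.997). The second probe, at 23679094 to 23679153, gave 0.13 for E2 in wild types and 0.20 for the genotypes compared under placebo.

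Xpr1 encodes the phosphate exporter. The probe used, on chromosome 1 at 157122924 to 157122983, read 3.06, 3.08, 3.14, 3.12 and 2.75 in wild types on placebo and 2.53, 2.50, 2.33, 3.10 and 2.94 in wild types on E2. In nulls it read 2.45, 2.98, 3.07, 2.84 and 2.88 on placebo and 2.74, 2.24, 2.997, 2.64 and 2.77 on E2. Wild-type placebo livers lay in a narrow band apart from animal 5, and the groups overlapped. The E2 difference was -0.35 in wild types (95% interval -0.68 to -0.017), with an unadjusted p of 0.0402 and an adjusted p of 0.576 in limma. In nulls it was -0.17 (95% interval -0.50 to 0.16, adjusted p = 0.921), and the difference between the genotypes was -0.18 (95% interval -0.65 to 0.29, adjusted p = 0.914). The other Xpr1 probes, at 157130518 to 157137337 (across an intron) and at 157179254 to 157179313, gave -0.25 and -0.18 for E2 in wild types, with adjusted p-values of 0.834 and 0.833 over all probes. Under placebo, null against wild type was -0.19 for the probe used (adjusted p = 0.760) and -0.44 and -0.43 for the others (unadjusted p = 0.112 and 0.0348).

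**Figure D3:**
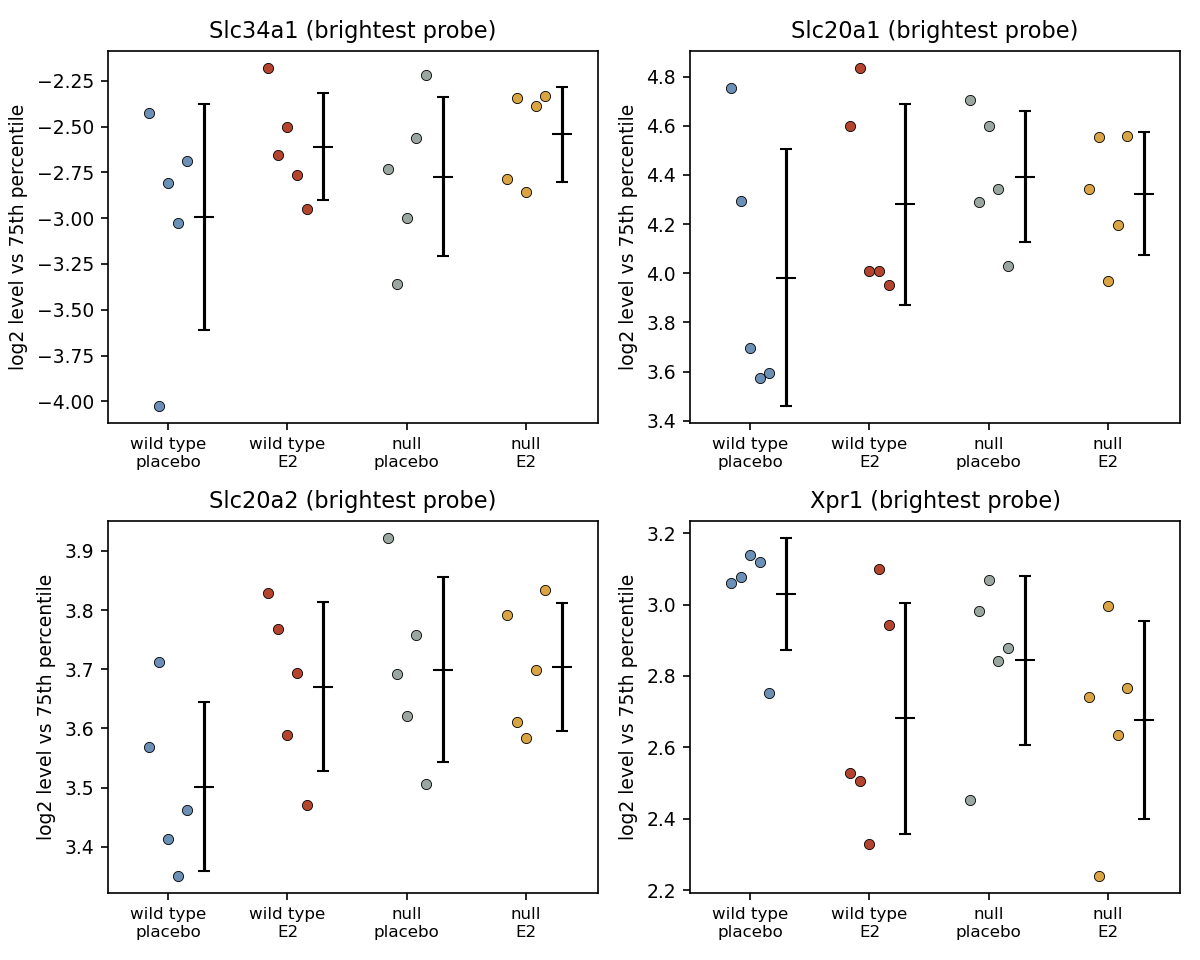
Levels (log2 relative to the array's 75th percentile, y axes that do not start at 0) of the brightest probes of Slc34a1, Slc20a1, Slc20a2 and Xpr1 in each of 20 livers, by group, with the group mean and SD. In each panel the 4 groups overlap, and the levels of a panel span at most about 2 log2 units.

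Slc34a1, Slc20a1, Slc20a2 and Xpr1 were the 4 members that could be tested, and none was called (limma). For E2 in wild types 0 of 4 passed an adjusted p of 0.05, beside 0.318% of all 21998 genes, and 1, Xpr1, had an unadjusted p under 0.05, as had 8.28% of all genes. For E2 in nulls 0 of 4 passed, beside 0.00455% of all genes, and 0 had an unadjusted p under 0.05, beside 6.06%. For the difference between the E2 effects the counts were 0 beside 0.164% and 0 unadjusted beside 7.39%. With the genotypes compared under placebo they were 0 beside 0.0727% and, unadjusted, 1 (Slc20a2) beside 2226 of the 21998 genes. Under E2 they were 0 beside 0.464% and 0 unadjusted beside 9.63%. With so few genes called anywhere, a count of 0 among 4 is near the background. For E2 in wild types the intervals reached 0.92 for Slc34a1, 0.78 for Slc20a1, 0.37 for Slc20a2 and -0.68 for Xpr1 on the log2 scale. Within the 3 slides that held both treatments of wild types, the difference ran from -0.53 to 1.3 for Slc34a1 and from -0.80 to 0.73 for Slc20a1. It ran from -0.097 to 0.36 for Slc20a2 and from -0.69 to -0.12 for Xpr1.

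**Figure D4:**
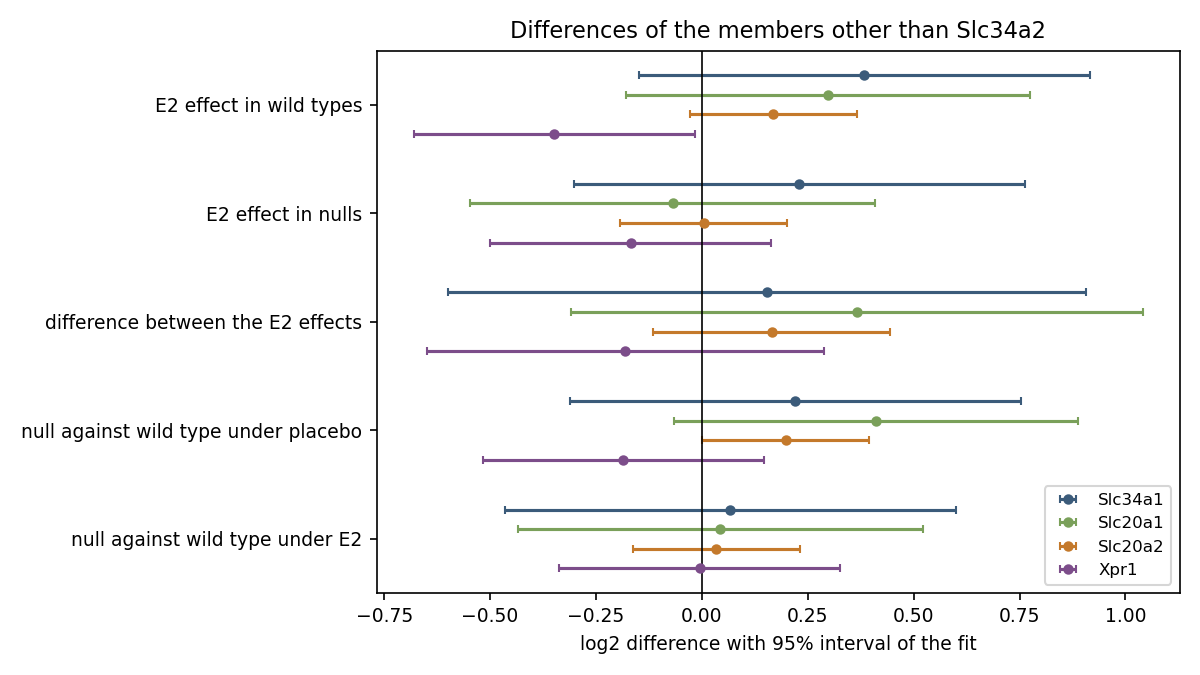
Log2 differences (points) with the 95% interval of the fit (bars) for the 4 members other than Slc34a2 that were measured, in the 5 comparisons. The intervals include 0 apart from those of Xpr1 (E2 in wild types) and Slc20a2 (the genotypes under placebo), and neither passed the adjustment over all genes.

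The wider phosphate system was read through 44 genes listed for their function, of which 32 were kept. They comprised 9 other carriers, 8 of 18 hormones, receptors and their enzymes, 10 of 11 scaffolds and kinases that act on the transporters, and 5 of 6 genes of pyrophosphate and phosphatase metabolism. None passed the threshold in any of the 5 comparisons (limma, 0 higher and 0 lower in each), which is near the background given above. For E2 in wild types 13 lay above 0 and 19 below, 5 of 32 had an unadjusted p under 0.05, beside 8.28% of all genes, and the median was -0.068, against 0.0022 over all genes. By sublist the median was -0.18 for the other carriers, -0.20 for the hormones and receptors, 0.062 for the scaffolds and kinases and -0.14 for the pyrophosphate genes.

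The smallest p for E2 in wild types was that of Sgk1, a kinase that acts on epithelial transporters and is induced by steroid hormones. Its level was 1.36 ± 0.21 in wild types on placebo, 2.02 ± 0.53 in wild types on E2, 2.12 ± 0.24 in nulls on placebo and 1.75 ± 0.19 in nulls on E2 (SD, n = 5). The E2 difference was 0.66 in wild types (unadjusted p = 0.0035, adjusted p = 0.336, limma), and the difference between the genotypes was 1.03 (adjusted p = 0.345). Null against wild type under placebo was 0.76 (adjusted p = 0.193). Slc17a2, an organic anion carrier of the family first described as phosphate transporters, gave -0.33 for E2 in wild types (adjusted p = 0.567). Ip6k1, which makes the inositol pyrophosphates that phosphate sensors bind, gave -0.19 (adjusted p = 0.579).

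The neighbours of Slc34a2 on chromosome 5 had small differences for E2 in wild types. Within 1 Mb of its probe 21 other genes or transcripts were kept, and 0 were called in any comparison (limma), a count near the background of 0.318% of all genes for E2 in wild types. There 1 of them had an unadjusted p under 0.05, beside 8.28% of all genes, their median difference was 0.089, and they ranged from -0.46 to 0.52. The nearest kept gene on one side was Sel1l3, 36.4 kb away, with -0.43 (95% interval -1.01 to 0.15, adjusted p = 0.691). On the other side it was Anapc4, a subunit of the anaphase-promoting complex 204 kb away, with 0.029 (95% interval -0.17 to 0.23, adjusted p = 0.956).

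**Figure D5:**
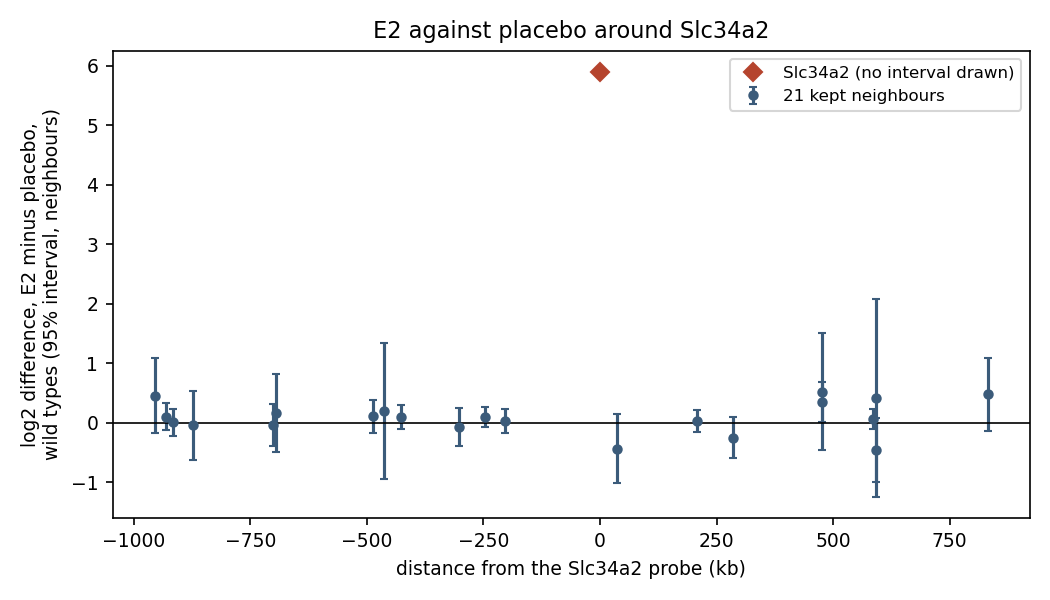
Log2 difference between E2 and placebo in wild types (y axis) against the distance from the Slc34a2 probe in kb (x axis) for the 21 kept neighbours, with 95% intervals, and for Slc34a2, drawn without an interval since it was chosen by this value. The neighbours lie between -0.46 and 0.52, and Slc34a2 lies at 5.90.

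The genes whose levels followed Slc34a2 most closely over the 20 arrays were transcripts ENSMUST00000093911 (Pearson r = 0.978) and ENSMUST00000040703 (0.959), Mad2l1 (0.947), Caskin2 (0.942), Il17ra (0.942) and Krt4 (0.941). Mad2l1 encodes a spindle checkpoint protein, Il17ra a cytokine receptor and Krt4 an epithelial keratin. The correlation is a description over 20 arrays of 4 groups, and the 5 wild-type E2 arrays carry much of it. Levels in that group and in wild types on placebo were 0.86 and -1.24 for Mad2l1, 1.08 and -0.83 for Il17ra, and 1.90 and 0.83 for Caskin2. Krt4 was well above background on 5 wild-type E2 arrays and on 0 in each other group. ENSMUST00000040703 was so on 5 wild-type E2, 0 wild-type placebo, 1 null placebo and 1 null E2 arrays. Both thus passed the filter through the wild-type E2 group alone, as Slc34a2 did. By rank (Spearman) only 1 of these 6 was among the closest 6. The other phosphate transporters had a Pearson r of 0.195 (Slc20a2), 0.178 (Slc20a1), 0.158 (Slc34a1) and -0.306 (Xpr1) with Slc34a2.

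As a check of genotype, the receptor gene Esr1 differed between nulls and wild types by -2.00 on the log2 scale under placebo (adjusted p = 0.000483, limma) and by -2.23 under E2 (adjusted p = 1.81e-05). It stayed well above background on all null arrays, and the sources used here do not say where its probe lies relative to the inactivated part. Hepatocyte markers were measured for 8 of 8 genes, with a summed level of 12.2 to 12.6 in all groups. Markers of other cell types were read beside Slc34a2. Bile duct cell markers were kept for 9 of 10, and their summed level was 1.99 to 2.90 in wild types on placebo, 1.94 to 3.32 in wild types on E2, 2.24 to 3.08 in nulls on placebo and 1.98 to 2.83 in nulls on E2. Alveolar type 2 cell markers were kept for 5 of 7, with the surfactant genes Sftpc and Sftpb well above background on 1 and 2 arrays, and summed levels of 5.67 to 5.85, 5.52 to 5.78, 5.29 to 5.79 and 5.59 to 5.86 in the same order. No marker of these lists, nor of Kupffer, sinusoidal endothelial, stellate or pancreatic acinar cells, was called for E2 in wild types (limma). Of all genes 0.318% were called there and 8.28% had an unadjusted p under 0.05, as had 1 stellate marker. In that comparison 8 of 8 Kupffer cell markers lay above 0 (median 0.32) and 7 of 7 sinusoidal endothelial markers (median 0.095), and in nulls 8 of 8 (median 0.18) and 3 of 7 (median -0.095). Their summed levels overlapped, at 5.69 to 6.61 in wild types on placebo and 5.84 to 7.37 on E2 for Kupffer cells, and at 5.41 to 6.23 and 5.46 to 6.09 for endothelial cells. For null against wild type under E2 the stellate marker Ngfr was lower, with a difference of -1.24 (adjusted p = 0.00668, limma). It was the only marker called in any comparison, and 0.464% of all genes were called in this one. The part of these markers in the level of Slc34a2 was not tested. Of the pancreatic acinar markers 3 of 7 were kept: Ctrb1 and Amy2a5 were well above background on 20 arrays and Cela2a on 18, against 8 for Cela1, 2 for Cpa1, 1 for Pnlip and 0 for Prss2.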

How the data were processed

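Liver RNA of 20 mice was hybridised to 1-colour Agilent arrays, per the labels' protocols. Per the file headers, Agilent Feature Extraction 10.10.1.1 gave each spot a mean, a local background and a processed intensity, the last background-subtracted and detrended, with probes placed on mm9. The authors also deposited log2 values for 32526 probes, with no background subtraction seen when set against the scanner values (correlation 0.99867 to 0.999984). Per the submitters' processing notes limma was used, with no version given.

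Levels are log2 processed intensities from which the 75th percentile of the array, over 59305 non-control spots, was subtracted. Spots marked non-uniform (0 to 16 per array) were dropped, none was saturated, and replicate spots were averaged. A probe was kept if at least 4 of 5 arrays in some group had it well above background (30960 of 55681), and each gene is read by its brightest probe (21998 genes). Names came from RefSeq for 31381 probes. Group means of all 20 arrays were fitted together in limma 3.58.1 (R 4.3.3 and data.table, version 1.17.8, with 16 residual degrees of freedom). Tests were 2-sided, and p-values of each of the 5 contrasts were adjusted over all genes by Benjamini-Hochberg. The fit was tested on simulated data.

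A fold against a group with no array well above background uses a floor and is not a strict bound. On each array the floor is the lowest signal well above background. The members, gene lists and tests were chosen with earlier results of these data known. Genes named were the 6 members, phosphate genes called or the 3 with the smallest p, the nearest neighbours, the 6 genes most like Slc34a2, and Esr1. Each array is 1 animal, and the number of arrays limits the precision. The alternatives were another background correction, scaling, filter and probe summary, the deposited values, blocks for slide, replicate number and animal number, and leaving out each animal. Deviations of same-numbered animals of different groups correlated at -0.163 to 0.245 over 30 pairs (median 0.0859, against -0.0212 for other pairs). Not every pair was above 0.1, so the numbers were not taken as pairs. Slc34a2 was to be tested outside the wild-type E2 group, and is not, since no array there measured it well above background.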

Additional observations from a re-analysis of the deposited data

Results flagged for a closer look

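Among 44 sets of 5 livers (each of the 11 probes in each group), 2 had a liver whose gap to the nearest other was large for the range of the set. Chance gives this in about 1 in 20 sets. Both were Xpr1 probes in wild-type placebo animal 5. The probe used read 2.75 there and 3.06 to 3.14 in the other 4 livers of the group, and the third Xpr1 probe read -4.09 there and -3.39 to -3.14 in the others. The middle probe of the gene read -1.74 in that animal, within the -2.00 to -1.37 of its group.

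The E2 effect on Slc34a2 differed between wild types and nulls by 6.07 on the log2 scale, with all 5 wild-type E2 livers above every other liver. No array of the other groups measured the probe well above background, so this difference does not give a fold. Since the gene was chosen by its rise in wild types, the difference was not tested.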

How the results depend on the processing

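The measured size of the Slc34a2 difference depended on how background was treated. With normexp background (50 added to every spot) and quantile normalization it was 2.57 for E2 in wild types. It was then 2.56 for the difference between the E2 effects and -2.64 for null against wild type under E2. In the deposited values it was 3.08, 3.06 and -3.16. It kept its sign in every alternative that gave a value. Leaving out each animal in turn gave 5.63 to 6.12, 5.80 to 6.29 and -6.41 to -5.95 for the same comparisons. A filter on at least 15 arrays removes Slc34a2, so it gives no value there. Of 656 values of the 4 tested members under up to 33 alternatives, 0 passed the threshold in limma, and the phosphate genes and the neighbours of Slc34a2 also gave 0 under each alternative run for them. With the replicate block the E2 difference of Slc34a2 in wild types stayed at 5.90, 0 tested members were called, and the numbers are not taken to pair the animals. Of the 6 genes most like Slc34a2, 1 was among the closest 6 by Spearman correlation and 4 with normexp values. Scaling to the array median moved the median of all genes by -0.22 for E2 in wild types and changed no member's call. Signal near background limits Slc34a2 outside the wild-type E2 group and Slc34a3 in all groups, and 5 animals per group leave intervals of up to 0.92 for the other members under E2 in wild types.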
